A study of Mus musculus with 6 samples.

Results

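The nitric oxide and cyclic GMP pathway was followed through 10 genes, chosen by symbol, out of 20887 genes that the array's probes could be named for. They were the 3 nitric oxide synthases (Nos1, Nos2 and Nos3), 3 subunits of soluble guanylate cyclase (Gucy1a1, Gucy1a2 and Gucy1b1), the receptor cyclase Npr1, the cyclic GMP kinases Prkg1 and Prkg2, and the phosphodiesterase Pde5a. All 10 had a probe on the array, 13 probes and 23 spots in all, and all 10 passed the filter on dim signal. Gucy1a1 and Gucy1b1 were higher, and Nos3, Pde5a and Nos1 lower, in collecting duct preparations from mice without the bradykinin B2 receptor in the Hoxb7 lineage, while the other 5 genes did not pass the test. The Nos1 result was lost in 8 of 17 alternative settings and that of Pde5a in 4 of 18. Those of Gucy1a1, Gucy1b1 and Nos3 held in all 18.

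Nitric oxide synthases make nitric oxide from arginine, with tetrahydrobiopterin as a cofactor. The gas binds the heme of soluble guanylate cyclase, a dimer of an alpha and a beta subunit, and the enzyme then turns GTP into cyclic GMP, which natriuretic peptides also raise through receptor cyclases such as Npr1. Cyclic GMP acts through its kinases and through ion channels and is broken down by phosphodiesterases. In the kidney the pathway is known for dilating vessels and for promoting sodium excretion, and the bradykinin B2 receptor is a known activator of endothelial nitric oxide synthesis.

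RNA came from C57BL/6 kidneys at postnatal day 1, in which cells positive for GFP and dsRED had been sorted by flow cytometry. The 3 knockout samples (KO) were Hoxb7cre+; Bdkrb2 F/F; R26RtdTomato, and the 3 wild-type samples (WT) were Hoxb7cre+; R26RtdTomato; Bdkrb2+/+, so Cre and the tdTomato reporter were present in both groups. All animals were on food with 5% sodium, given as a stress during gestation. Hoxb7-driven Cre acts in the ureteric bud and its descendants, so the receptor is intact elsewhere in a KO kidney. The parents named in the labels were all floxed and could not have borne Bdkrb2+/+ pups, so litter and genotype cannot be told apart. The series text calls the replicates biological, but the number of animals behind a sample is not stated, and p-values measure the spread between these samples.

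Each array compared sample RNA labelled with Cy5 against the RNA of WT replicate 1 labelled with Cy3, without a dye swap, so the array of WT replicate 1 (WT1) set that RNA against itself. A single-colour experiment is named in the series text, but the labels name a Cy3 source (the WT1 reference) for every sample and the files hold both channels, on which all ratios here rest. Values below are log2 ratios of Cy5 over Cy3 after loess normalisation. Differences are KO minus WT, with the moderated standard error (SE) of limma, n = 3 arrays per group, and p-values adjusted by the Benjamini-Hochberg method over all 14755 genes tested, with a threshold of 0.05 (a gene past it is called). Of these genes, 35.3% were called in either direction, 15.3% higher in KO and 20.0% lower, so higher genes made up 43.4% of the calls. That split became 74.3% when arrays were centred on the median in place of loess, which shifted the median over all genes from -0.02 to 0.25, and 33.1% with the row of the slide as a block. The KO arrays and WT1 lay in row 1 of the slide, and the arrays of WT replicates 2 and 3 (WT2 and WT3) in row 2. The single probe for Bdkrb2 itself stayed near background on all 6 arrays (Cy5 between 0.972 and 1.11 times the local background), so it gives no check of the genotype labels, and the sources name no position for it relative to the deleted part.

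The preparations also differed in markers of cell types. All 9 principal cell markers tested were called lower in KO (median difference -1.90), as were all 10 intercalated cell markers (-2.40) and all 8 of the loop of Henle and distal tubule (-2.02). Over all genes, 20% were called lower. In units of each array's 75th percentile, the summed Cy5 level of the principal cell list ran from 29.3 to 37.6 on KO and from 146 to 172 on WT arrays, and 1 of its 10 markers stayed near background on all arrays. That of the intercalated list ran from 21.2 to 27.4 on KO and from 102 to 149 on WT arrays. The loop of Henle and distal tubule, like the endothelium and stroma described further on, are not collecting duct, and their markers were nevertheless measured in these sorted samples. In pooled RNA such as this, fewer cells of a type and less RNA per cell cannot be told apart.

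Of the 10 pathway genes, 5 were called (50%, against 35.3% of all genes), 2 higher and 3 lower. In 7 of the 10 (70%) the groups were fully separated, against 52.1% of all genes. The median difference was -0.07, beside -0.02 over all genes, and the median size of the difference without its sign was 0.46, beside 0.28. The count was 7 with Cy5 alone or with array weights, 3 with the slide row as a block, and 3 without KO replicate 2 or without WT replicate 3.

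**Figure D1:**
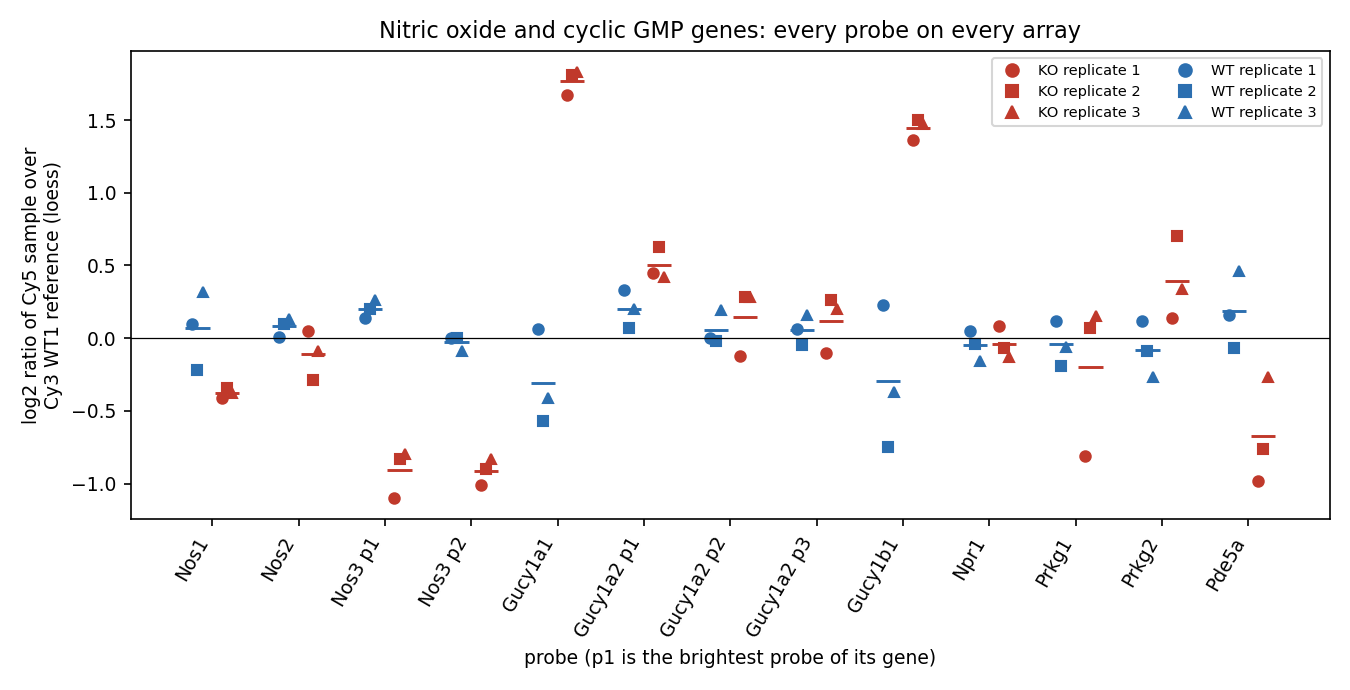
Log2 ratio of Cy5 (sample) over Cy3 (WT1 reference) after loess for the 13 probes of the 10 genes, on the y axis, by probe on the x axis. Each point is an array (red KO, blue WT, shape by replicate) and each bar is a mean of 3 arrays. The KO points of Gucy1a1 and Gucy1b1 sit between 1.36 and 1.83, above every WT point, and those of the brighter Nos3 probe between -1.10 and -0.80, below every WT point.

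Gucy1a1 and Gucy1b1 encode the alpha and beta subunits that form the main soluble guanylate cyclase of vessels. They are neighbours on chromosome 3 with 0 annotated genes between them, so the promoters of the pair are shown first, since both were higher in KO. The sequences are RefSeq's for GRCm38.p6, from 250 bases before to 50 after an annotated start and written 5′ to 3′ on the gene's strand. The RefSeq table held a promoter for 7 of the 10 genes, with 2 for Gucy1a1. Capitals mark matches, on either strand, to any of 5 short motifs: GGGCGG (known as the GC box), CCAAT (the CAAT box), TATAAA (the TATA box), TGACG (the core of the cyclic AMP response element) and TGANTCA (the AP-1 element).

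Gucy1a1, upper start, minus strand, chr3:82145601-82145900: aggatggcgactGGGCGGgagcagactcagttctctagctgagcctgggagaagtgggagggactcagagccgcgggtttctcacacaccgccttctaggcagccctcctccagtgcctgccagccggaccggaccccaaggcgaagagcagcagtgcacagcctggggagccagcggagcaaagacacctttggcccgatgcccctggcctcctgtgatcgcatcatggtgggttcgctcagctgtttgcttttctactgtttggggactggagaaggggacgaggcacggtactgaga
Gucy1a1, lower start, minus strand, chr3:82145024-82145323: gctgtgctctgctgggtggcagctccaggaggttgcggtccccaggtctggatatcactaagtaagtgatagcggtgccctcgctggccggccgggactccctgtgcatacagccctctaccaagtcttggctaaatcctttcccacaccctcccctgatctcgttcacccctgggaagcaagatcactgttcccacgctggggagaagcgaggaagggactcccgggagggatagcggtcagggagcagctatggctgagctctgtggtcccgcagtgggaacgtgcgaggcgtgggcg
Gucy1b1, minus strand, chr3:82074662-82074961: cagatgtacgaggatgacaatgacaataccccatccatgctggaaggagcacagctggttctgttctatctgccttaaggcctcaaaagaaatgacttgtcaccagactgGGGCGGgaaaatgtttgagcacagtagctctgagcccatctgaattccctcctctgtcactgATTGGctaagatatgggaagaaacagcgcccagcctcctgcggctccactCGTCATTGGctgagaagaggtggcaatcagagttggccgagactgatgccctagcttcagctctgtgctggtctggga

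The upper start of Gucy1a1 held 1 GGGCGG and its lower start no match to any of the 5. Gucy1b1 held 1 GGGCGG, 2 CCAAT and 1 TGACG, the last sharing 1 base with a CCAAT match. Among 32851 promoters of the same length, the GC box was in 35.7%, the CAAT box in 37.4%, the TATA box in 13.6%, the cyclic AMP core in 20.8% and the AP-1 element in 7.8%. Both Gucy1a1 promoters had a GC content of 62.3%, with 14 CpG dinucleotides at the upper start and 15 at the lower, and the Gucy1b1 promoter had 52.3% and 6, beside medians of 52.7% and 7 over all promoters.

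Gucy1a1 had 1 probe, and its log2 ratios were 1.67, 1.81 and 1.83 in KO replicates 1 to 3 and 0.06, -0.57 and -0.41 in WT replicates 1 to 3. The KO values lay close together and far above all WT values, among which WT1 was the highest. The KO mean was 1.77 ± 0.09 and the WT mean -0.31 ± 0.33 (SD, n = 3). Gucy1a1 was 4.21-fold higher in KO (95% interval 3.23 to 5.48), a difference of 2.07 ± 0.16 (SE, limma adjusted p = 0.000202). By size of difference it ranked 165 of 14755 genes.

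Gucy1b1, whose product carries the heme that senses nitric oxide, moved the same way. Its log2 ratios were 1.36, 1.50 and 1.47 in KO replicates 1 to 3 and 0.23, -0.75 and -0.37 in WT replicates 1 to 3. Every KO value was above every WT value, and WT1 was again the highest of the WT arrays. Gucy1b1 was 3.34-fold higher (95% interval 2.34 to 4.77), with a difference of 1.74 ± 0.22 (SE, limma adjusted p = 0.000903). Both genes stayed called under all 18 alternatives. With the slide row as a block, which sets the KO arrays against WT1, the differences were 1.71 for Gucy1a1 and 1.21 for Gucy1b1 (adjusted p 0.00636 and 0.00977).

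The signal behind these ratios was well above background in both channels on every array. Processed Cy5 intensities of the Gucy1a1 probe were 7516, 6554 and 6952 on the KO arrays and 978, 514 and 607 on the WT arrays. The Cy3 reference of the same probe, which is the same RNA on every array, read 2061, 1682 and 1569 on the KO arrays and 923, 803 and 863 on the WT arrays. As a geometric mean over the 13 probes, the Cy3 signal of a KO array was between 1.95 and 2.15 times that of the WT1 array. Over each whole array, the 75th percentile of Cy3 was 479 to 547 on KO and 247 to 270 on WT arrays. Array brightness therefore split by genotype, and effects of the 2 on the ratios cannot be told apart by design. Cy5 intensities are therefore read beside Cy3 and not alone. For Gucy1b1, Cy5 read 1433, 1429 and 1323 on the KO arrays against a Cy3 of 450, 427 and 368. On the WT arrays its Cy5 was 224, 96.5 and 111 against a Cy3 of 210, 204 and 157. Cy5 thus exceeded the reference severalfold on the KO arrays and lay near or below it on the WT arrays. The deposited Agilent ratios gave larger differences of 2.35 for Gucy1a1 and 2.25 for Gucy1b1 on the log2 scale.

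**Figure D2:**
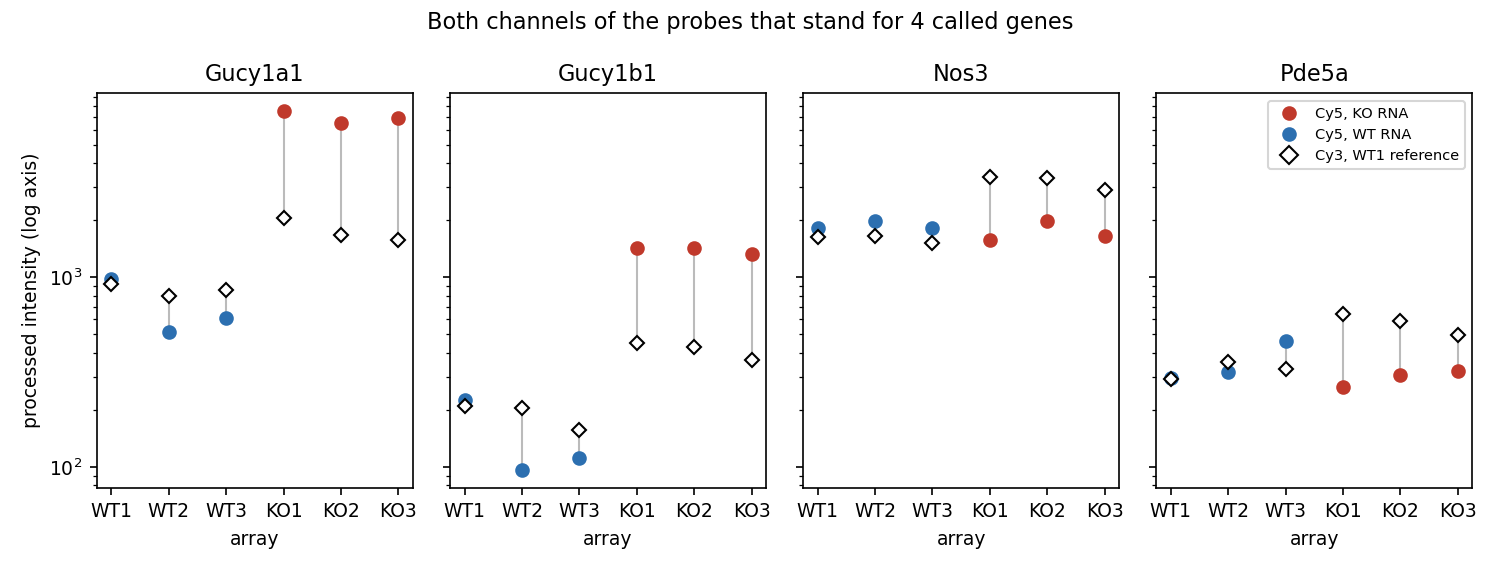
Processed intensities (log axis) of the probes that stand for Gucy1a1, Gucy1b1, Nos3 and Pde5a, by array. Filled points are Cy5 (red KO, blue WT RNA), open diamonds are the Cy3 WT1 reference, and grey lines join the channels of an array. On the KO arrays Gucy1a1 read between 6554 and 7516 in Cy5 and between 1569 and 2061 in Cy3, whereas the Cy5 of Nos3 lay below its Cy3.

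Gucy1a2 encodes the other alpha subunit, which pairs with the same beta subunit, and it was measured by 3 probes. The brightest gave 0.45, 0.63 and 0.42 in KO replicates 1 to 3 and 0.33, 0.07 and 0.20 in WT replicates 1 to 3. The groups did not overlap, but the difference of 0.30 ± 0.11 (SE) did not pass the test (limma adjusted p = 0.0742). It passed with Cy5 alone (0.51, adjusted p = 0.0482) and with array weights (0.31, adjusted p = 0.0357), and ranged from 0.15 to 0.61 over settings that kept all arrays. Processed Cy5 of that probe was 452 to 516 on the KO arrays, with Cy3 between 290 and 334, and 156 to 210 on the WT arrays, with Cy3 between 136 and 173. The other probes gave differences of 0.09 ± 0.14 and 0.06 ± 0.13 (SE), and the dimmest was well above background in Cy5 on 2 KO and 2 WT arrays. Of the 3 subunit genes, 2 rose, and the alpha subunit that did was Gucy1a1.

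Among the synthases, Nos3, the endothelial enzyme, was lower in KO by both of its probes. The brighter probe gave -1.10, -0.83 and -0.80 in KO replicates 1 to 3 and 0.14, 0.20 and 0.26 in WT replicates 1 to 3. The other probe, printed as 10 spots of which 7 to 10 were kept per array, gave -1.01, -0.90 and -0.83 in KO and 0.00, 0.00 and -0.09 in WT. No KO value of either probe reached a WT value, and the spread between spots of the second probe on an array was small beside the difference (median SD 0.067).

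Nos3 was 2.16-fold lower (95% interval 1.79 to 2.59) by the brighter probe, a difference of -1.11 ± 0.11 (SE, limma adjusted p = 0.000368). The second probe gave -0.89 ± 0.10 (SE), with a limma adjusted p of 0.000831 when every probe was tested on its own row, where 25.3% of 29811 probes were called. Nos3 stayed called under all 18 alternatives, with differences from -1.17 to -0.83. Processed Cy5 of the brighter probe was 1581, 1994 and 1654 on the KO arrays and 1824, 1993 and 1832 on the WT arrays. Its Cy3 reference was 3400.0, 3337 and 2909 on the KO arrays and 1637, 1652 and 1515 on the WT arrays. The Cy5 intensities alone overlap between the groups, and the difference appears against the reference or after scaling each array by its 75th percentile (-1.09).

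Nos1, the neuronal synthase, gave -0.41, -0.34 and -0.38 in KO replicates 1 to 3 and 0.10, -0.22 and 0.32 in WT replicates 1 to 3. All KO values were below all WT values, and the WT values were widely spread. The difference of -0.44 ± 0.14 (SE) was called (limma adjusted p = 0.0431). The probe was dim, with Cy5 between 1.31 and 1.93 times the local background, and was not well above background on the array of KO replicate 1. Processed Cy5 was 14.7, 25.9 and 29.6 on the KO arrays against a Cy3 of 48.9, 58.0 and 65.5, and 35.7, 23.6 and 47.3 on the WT arrays against a Cy3 of 28.8, 38.5 and 23.0. Cy5 was below the reference on every KO array and on WT2. The call was lost in 8 of the 17 alternatives that could test it, among them median centring, the slide row as a block and leaving out any KO replicate. The size depended on the processing. An offset of 16 intensity units in place of 50 gave -0.71, and the Agilent ratios, which differ in background correction and normalisation as well, gave -1.56.

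Nos2, the inducible synthase of immune and epithelial cells, did not pass the test. Its probe, printed as 2 spots, gave 0.05, -0.29 and -0.09 in KO replicates 1 to 3 and 0.01, 0.10 and 0.13 in WT replicates 1 to 3. The groups overlapped, and the difference was -0.19 ± 0.12 (SE, limma adjusted p = 0.238, 95% interval -0.46 to 0.08), with the opposite sign under median centring (0.05). Its processed Cy5 ran from 190 to 296 on the KO arrays and from 115 to 168 on the WT arrays, with Cy3 from 213 to 277 and from 110 to 145.

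Downstream of cyclic GMP, Pde5a, which hydrolyses the nucleotide and is the target of sildenafil, was lower in KO. Its promoter is shown because it is the other called gene with a promoter on chromosome 3. It held 1 GGGCGG and no other match, a GC content of 66.3% and 23 CpG dinucleotides.
Pde5a, plus strand, chr3:122728908-122729207: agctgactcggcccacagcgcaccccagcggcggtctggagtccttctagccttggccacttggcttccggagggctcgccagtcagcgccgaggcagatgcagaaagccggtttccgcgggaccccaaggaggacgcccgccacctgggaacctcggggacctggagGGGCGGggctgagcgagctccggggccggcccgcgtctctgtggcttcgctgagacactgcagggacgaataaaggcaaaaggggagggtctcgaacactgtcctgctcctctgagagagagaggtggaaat

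Pde5a gave -0.98, -0.76 and -0.27 in KO replicates 1 to 3 and 0.16, -0.07 and 0.46 in WT replicates 1 to 3. The groups did not overlap, although KO replicate 3 lay near WT2. Processed Cy5 was 264, 306 and 319 on the KO arrays and 294, 316 and 463 on the WT arrays, with Cy3 between 497 and 641 on the KO arrays and between 292 and 357 on the WT arrays. Pde5a was 1.80-fold lower (95% interval 1.30 to 2.50), a difference of -0.85 ± 0.20 (SE, limma adjusted p = 0.0142). The call was lost without WT replicate 3 (adjusted p = 0.0606), under median centring (0.0551), when KO replicate 2 was dropped (0.0506) and with the slide row as a block (0.126), with differences between -0.83 and -0.63 there.

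The kinases did not pass the test. Prkg2, the membrane-anchored kinase known to restrain renin release, gave 0.14, 0.70 and 0.34 in KO replicates 1 to 3 and 0.12, -0.09 and -0.27 in WT replicates 1 to 3. The groups did not overlap, with KO replicate 1 and WT1 almost level, and the difference was 0.47 ± 0.16 (SE, limma adjusted p = 0.0562). Its processed Cy5 was 101, 189 and 135 on the KO arrays and 38.5, 32.9 and 24.8 on the WT arrays, with Cy3 from 74.0 to 88.2 and from 27.0 to 41.4. It was called without KO replicate 1 (0.60, adjusted p = 0.0154), with array weights (0.61, 0.00822), under median centring (0.76, 0.0183) and with Cy5 alone (1.15, 0.0141), and its value ranged from 0.28 to 1.15 over all 18 alternatives.

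Prkg1, the kinase that relaxes smooth muscle, gave -0.81, 0.07 and 0.15 in KO replicates 1 to 3 and 0.12, -0.19 and -0.06 in WT replicates 1 to 3. KO replicate 1 alone was low, and the other KO arrays lay within or just above the WT range. Its processed Cy5 was 41.4 on that array against 183 and 179 on the other KO arrays, with Cy3 between 140 and 176 on all 3. The difference was -0.15 ± 0.24 (SE, limma adjusted p = 0.659), and without KO replicate 1 it turned to 0.16 (adjusted p = 0.322). On the same array Slc7a1, an arginine carrier, stood at -0.75 against 0.30 to 0.37 on the other KO arrays, and Ppp1r12a, a subunit of myosin phosphatase, at -1.22 against 0.19 and 0.23.

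Npr1, the receptor of atrial natriuretic peptide, was near the detection limit, with Cy5 well above background on 3 KO arrays and 1 WT array. It gave 0.08, -0.07 and -0.13 in KO replicates 1 to 3 and 0.05, -0.04 and -0.16 in WT replicates 1 to 3. The groups overlapped almost fully, and the difference was 0.01 ± 0.11 (SE, limma adjusted p = 0.948, 95% interval -0.24 to 0.26). Its processed Cy5 was 34.3 to 45.5 on the KO arrays and 12.8 to 21.2 on the WT arrays, with Cy3 from 35.4 to 48.5 and from 18.4 to 20.8, and the sign turned in 4 alternatives.

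The deposited Agilent ratios gave the same signs for 12 of the 13 probes. Turned to log2, those of Gucy1a1 were 1.87, 1.96 and 2.15 in KO replicates 1 to 3 and 0.08, -0.64 and -0.51 in WT replicates 1 to 3. Those of the brighter Nos3 probe were -1.10, -0.74 and -0.81 in KO and 0.16, 0.27 and 0.27 in WT. Those of Pde5a were -1.28, -0.94 and -0.64 in KO and 0.01, -0.18 and 0.49 in WT. The groups stayed apart for all 3 genes. The differences of these ratios were -1.09 for the second Nos3 probe, -1.06 for Pde5a, 0.91 for Prkg2, 0.50 for the brightest Gucy1a2 probe, -0.31 for Nos2, -0.27 for Prkg1 and 0.20 for Npr1. The probe whose sign differed was the dimmest of Gucy1a2 (-0.11, against 0.06 after loess).

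**Figure D3:**
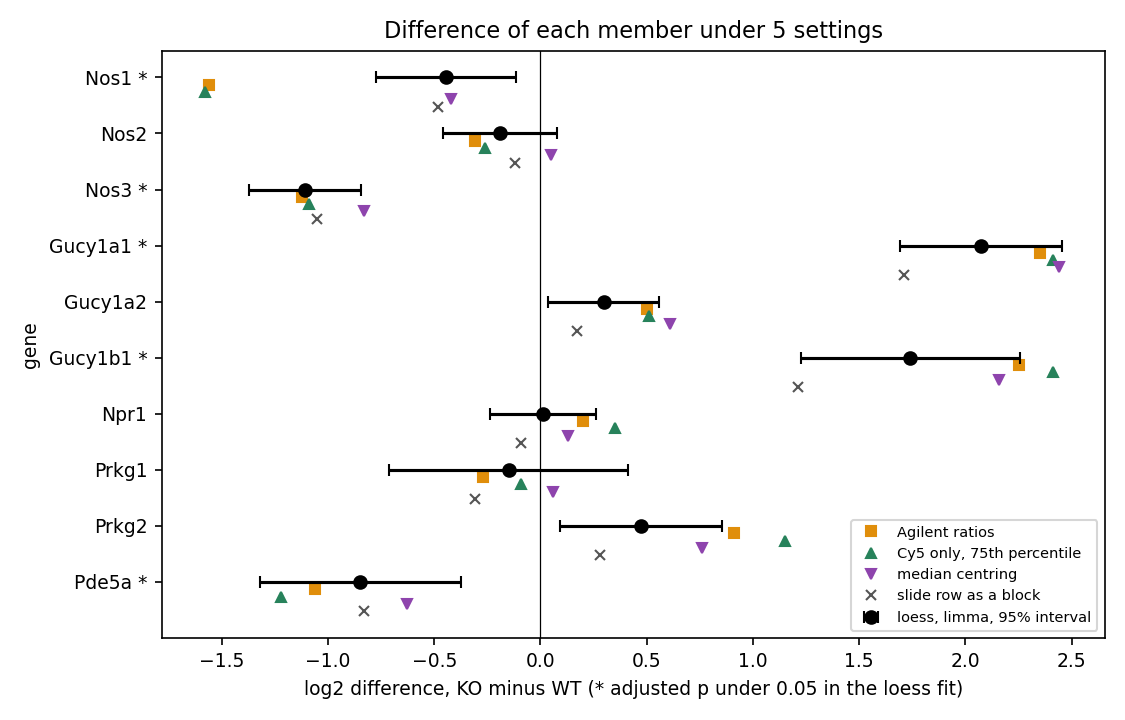
Log2 difference, KO minus WT, of the probe that stands for each of the 10 genes, on the x axis. Black points are the loess values with 95% intervals from limma, coloured marks are 4 other settings, and an asterisk marks an adjusted p under 0.05 in the loess fit. Gucy1a1 stays between 1.71 and 2.44 and Nos3 between -1.12 and -0.83, while Nos1 moves to -1.58 with Cy5 alone and Npr1, Nos2 and Prkg1 lie on either side of 0.

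Over the 6 arrays the log2 ratios of Gucy1a1 and Gucy1b1 had a Pearson r of 0.99, and those of Nos3 and Pde5a 0.91. These describe 6 points in 2 groups that share 1 reference RNA, so genes whose groups lie far apart correlate with others of that kind. The genes most like Gucy1a1 were Kcnj8, a potassium channel of pericytes, S1pr3 and Casp4 (r from 0.998 to 0.999), and 634 genes exceeded 0.95. For Gucy1b1 they were Serpinb6c, Nid1 and B4galt5 (0.996 to 0.997, with 378 genes over 0.95). For Nos3 they were Sipa1l3, Plpp2 and Abcd3 (0.998, with 1081 genes over 0.95), and for Pde5a Rabep2, L1cam and Hs6st1 (0.993 to 0.994, with 215). For the other 6 genes the highest r lay between 0.992 and 0.996, with 14 to 104 genes over 0.95.

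Nos3 is known from endothelium, and endothelial markers were lower in KO too. Of 15 endothelial markers, 12 were called lower and 0 higher, with a median difference of -0.85, whereas 20% of all genes were called lower. The list median was -0.79, -0.86 and -0.91 in KO replicates 1 to 3 and -0.04, 0.00 and 0.02 in WT replicates 1 to 3. The summed Cy5 level ran from 70.6 to 76.7 on KO and from 139 to 156 on WT arrays. For 0 of the 15, Cy5 failed to be well above background on every array. The difference was -0.81 for Pecam1, -0.69 for Cdh5 and -1.35 for Kdr, a receptor of vascular endothelial growth factor. Nos3, at -1.11, was lower than 12 of the 15 and higher than Ehd3, Kdr and Emcn. Endothelial cells lie outside the Hoxb7 lineage, and what the sort on GFP and dsRED removed was not measured. All 15 of their markers passed the filter on dim signal, which counts the arrays of both groups together. The part of endothelial RNA content in the Nos3 difference was not tested.

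Soluble guanylate cyclase is abundant in pericytes, vascular smooth muscle and interstitial cells, and some markers of these moved as well. Of 12 markers of smooth muscle, pericytes and renin cells, 5 were called higher (Pdgfrb by 1.69, Rgs5 by 1.24, Abcc9 by 1.10, Kcnj8 by 0.95 and Acta2 by 0.80) and 1 lower (Ren1, renin, at -0.61), with a median difference of 0.61. Not called in that list were Tagln (0.63), Des (0.59), Cspg4 (0.40), Cnn1 (0.05), Myh11 (-0.04) and Notch3 (-0.30). Of 12 markers of renal stroma, 11 were tested, 7 were higher and 0 lower, with a median of 2.06. Over all genes, 15.3% were called higher and 20% lower. The summed Cy5 level of the stroma list ran from 146 to 158 on KO and from 18.9 to 59.7 on WT arrays, and that of the smooth muscle list from 51.7 to 58.1 and from 27.7 to 41.5. Each marker of either list that had a probe was well above background in Cy5 on at least 1 array.

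Other lists moved in the same direction as the cyclase subunits or against it. Of 8 nephron progenitor markers, 7 were higher and 0 lower (median difference 1.85), with list medians of 2.14, 2.01 and 1.33 in KO replicates 1 to 3 and 0.05, 0.23 and -0.06 in WT replicates 1 to 3. Their summed Cy5 level ran from 81.6 to 158 on KO and from 37.5 to 44.3 on WT arrays. Of 9 macrophage and leukocyte markers tested, 6 were higher and 1 lower (median 0.99), with summed levels from 78.5 to 120 on KO and from 53.7 to 72.1 on WT arrays. Of 6 podocyte markers 1 was higher and 0 lower, of 8 proximal tubule markers 0 and 4, and of 5 erythroid markers tested 0 and 5. The shares over all genes were 15.3% called higher and 20% called lower.

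WT1 was the highest WT array in several of these. The stroma median was 0.04 on WT1 and -0.59 and -0.89 on WT2 and WT3, and the smooth muscle median 0.00, -0.52 and -0.50. Gucy1a1 and Gucy1b1 were also highest on WT1. So were the medians of the macrophage, podocyte, proximal tubule and loop of Henle lists. Those of the endothelial, nephron progenitor, principal, intercalated and erythroid cell lists were not. The differences of Gucy1a1 and Gucy1b1 exceeded those of all 12 smooth muscle markers, and those of 6 and 5 of the 11 stroma markers. Both also exceeded 4 of the 8 nephron progenitor markers, all 9 macrophage and leukocyte markers tested and 5 of the 6 podocyte markers. Stroma, pericytes and smooth muscle also lie outside the Hoxb7 lineage, and how far the sort removed them was not measured. The part of these cells, of nephron progenitors and of leukocytes in the guanylate cyclase differences was not tested.

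**Figure D4:**
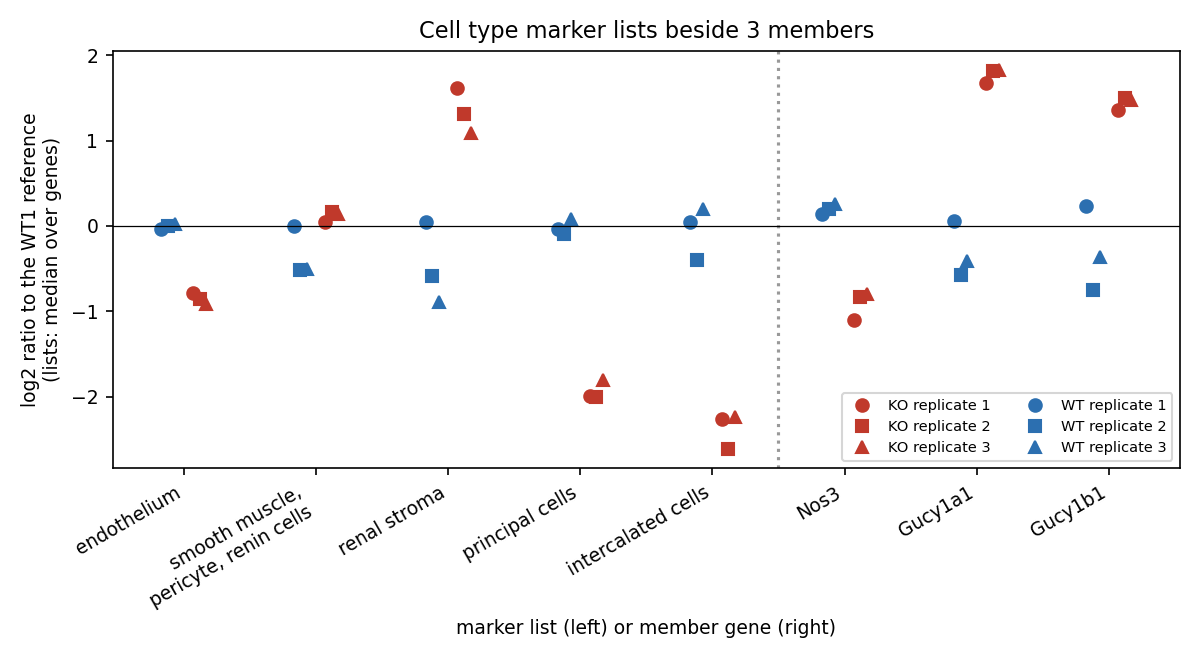
Log2 ratio to the WT1 reference by array, as the median over the genes of 5 marker lists (left of the dotted line) and for Nos3, Gucy1a1 and Gucy1b1 (right). Red points are KO and blue points WT arrays. On KO arrays the endothelial median lay between -0.91 and -0.79 and Nos3 between -1.10 and -0.80. The stroma median lay between 1.09 and 1.62 and Gucy1b1 between 1.36 and 1.50. KO replicate 1 was the highest KO array for both list medians and the lowest for Nos3 and Gucy1b1.

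The rest of the pathway was read from 5 lists of 71 names, of which 70 were on the array and 54 tested. The name not on the array, Irag1, is another symbol of Mrvi1, which was tested. Of these, 5 were called higher and 15 lower (37.0% called, against 35.3% of all genes), with a median difference of -0.19. The share called was close to that of all genes. The split was 9 higher and 8 lower under median centring, and 11 genes were called with the slide row as a block.

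The genes of the arginine and tetrahydrobiopterin list were called lower or did not pass the test. The list also holds arginases, which use up arginine, and the feedback regulator Gchfr, which restrains cofactor synthesis. Its count is therefore no measure of supply. Of 11 tested, 6 were called lower and 0 higher (54.5% called, against 35.3% of all genes), with a median of -0.49. Gchfr, the feedback regulator of tetrahydrobiopterin synthesis, was 2.09-fold lower (-1.07 ± 0.16 SE, limma adjusted p = 0.00157). Pcbd1, which recycles the cofactor, was 1.88-fold lower (-0.91 ± 0.13 SE, adjusted p = 0.00135). The synthesis enzymes Gch1, Pts and Spr had differences of -0.48, -0.49 and -0.58, and Arg2, an arginase, -0.56. Under median centring Pcbd1, Spr, Arg2, Pts and Gch1 lost their calls with the same sign, and Gchfr kept its own. With the slide row as a block Spr, Arg2, Pts and Gch1 were not called (adjusted p from 0.0515 to 0.247), and other calls ended when an array was left out. These were Arg2 without KO replicate 2, WT replicate 2 or WT replicate 3 (adjusted p from 0.0540 to 0.0649), Pts without KO replicate 2 or WT replicate 1 (0.0571 and 0.0653), and Gch1 without any array other than KO replicate 1 (0.0595 to 0.0861). The arginine synthesis enzymes Ass1 and Asl stood at -0.55 and -0.31 without passing the test, and Qdpr at -0.04.

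Among natriuretic peptides, guanylins, their processing enzymes and receptors, 9 were tested, 1 was higher and 4 lower (55.6% called, against 35.3% of all genes). Guca2a, guanylin, gave -2.06, -2.16 and -1.78 in KO replicates 1 to 3 and 0.00, -0.17 and 0.31 in WT replicates 1 to 3. The groups were far apart, and it was 4.13-fold lower (-2.05 ± 0.15 SE, limma adjusted p = 0.000185). Nppc, C-type natriuretic peptide, was 2.17-fold higher (1.12 ± 0.13 SE, adjusted p = 0.000701), with KO values from 0.89 to 1.36 and WT values from -0.09 to 0.07. Its receptor cyclase Npr2 was called lower (-0.36 ± 0.11 SE, adjusted p = 0.0319), but lost the call in 11 of 18 alternatives. The proteases that mature natriuretic peptides, Corin and Furin, were lower, at -0.88 and -0.53. Furin lost its call under median centring (-0.24, adjusted p = 0.475) and with the slide row as a block (0.0878), and Corin with that block (0.0515) and without WT replicate 3 (0.0555). The clearance receptor Npr3 stood at 0.78 ± 0.31 (SE) without passing the test (adjusted p = 0.083).

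A further list held 10 tested genes named as phosphodiesterases or their subunits, among them Pde6d, which is not a catalytic subunit. Pde1a, which calcium and calmodulin activate, was 2.91-fold lower (-1.54 ± 0.20 SE, limma adjusted p = 0.000905). Pde3b was higher (0.42 ± 0.10 SE, adjusted p = 0.012), but lost its call with the slide row as a block (0.0744) and without WT replicate 3 (0.0505). The other 8 did not pass, so 20% of the list were called, against 35.3% of all genes. No WT array had Pde3a well above background, and no KO array Pde1c. Of 12 regulators and partners of the synthases, 16.7% were called, against 35.3% of all genes. Cav1, the caveolin that binds and restrains Nos3, was lower (-0.67 ± 0.11 SE, adjusted p = 0.00232). Dlg4, a scaffold that binds Nos1, was higher (0.50 ± 0.11 SE, adjusted p = 0.00868). The probes of Ddah1, which breaks down a methylated arginine that inhibits the synthases, disagreed in sign (-0.29 and 0.33).

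Of 12 targets and exporters tested, 2 were higher and 3 lower (41.7% called, close to the 35.3% of all genes). Mrvi1, the kinase substrate that links Prkg1 to the calcium channel Itpr1, gave 1.36, 1.02 and 1.08 in KO replicates 1 to 3 and 0.11, -0.70 and -0.79 in WT replicates 1 to 3. It was 3.06-fold higher (1.61 ± 0.23 SE, limma adjusted p = 0.00153), and its highest WT array was WT1, as for the cyclase subunits. Itpr1 itself was 2.13-fold lower (-1.09 ± 0.14 SE, adjusted p = 0.0009). Rgs2, a brake on G protein signalling that Prkg1 activates, was lower, at -1.52 by the brighter of its probes and -0.38 by the other. Kcnj10, a potassium channel of distal tubule cells, was 6.69-fold lower (-2.74 ± 0.21 SE, adjusted p = 0.000185). All 8 markers of the loop and distal tubule, all 9 principal cell markers tested and all 10 intercalated cell markers were called lower too. Kcnma1, a potassium channel that Prkg1 opens, was higher by 0.48, and its call was lost with the slide row as a block (0.37, adjusted p = 0.22), without WT replicate 2 (0.0545) and without WT replicate 3 (0.0753).

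**Figure D5:**
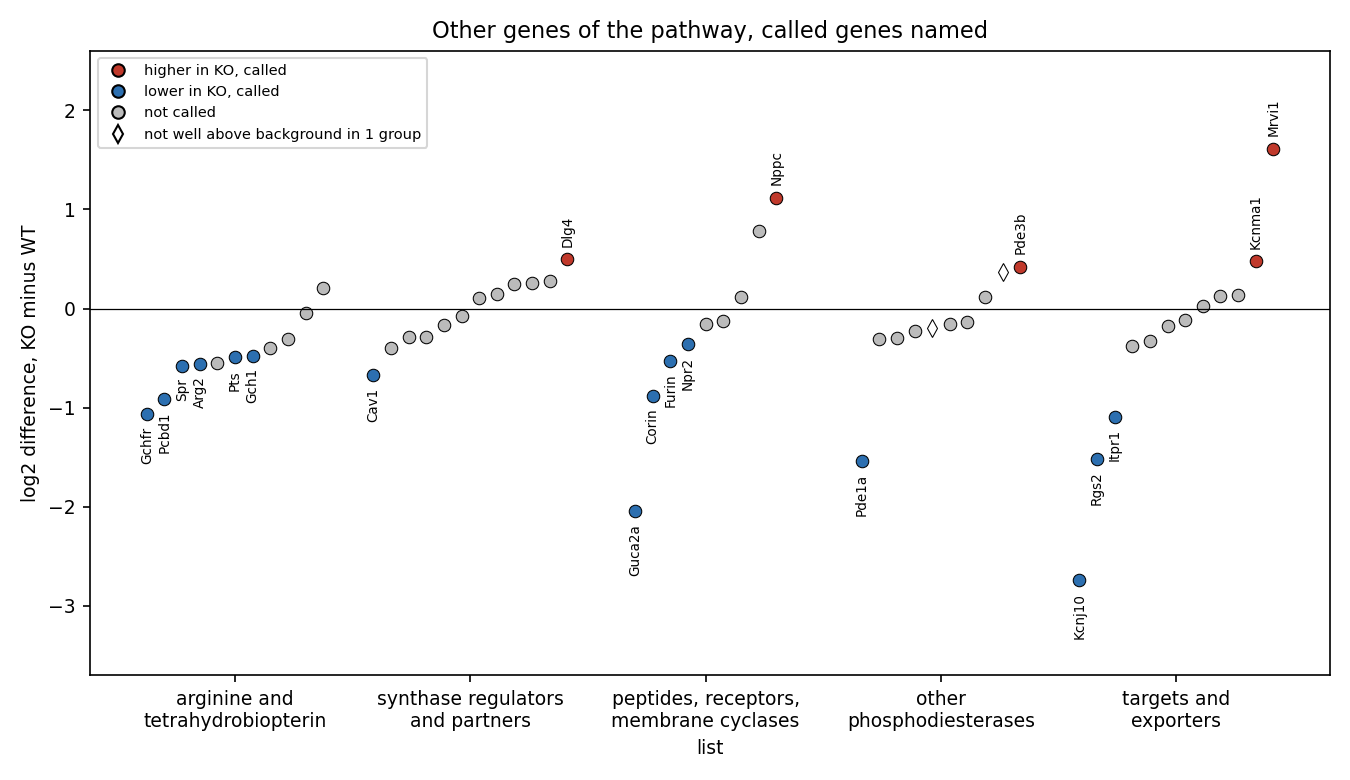
Log2 difference, KO minus WT, of the 54 other pathway genes tested, on the y axis, by list on the x axis and sorted within each list. Red and blue points are called genes, named, grey points are not called, and open diamonds are the genes not well above background in 1 group. Called points run from -2.74 (Kcnj10) to 1.61 (Mrvi1), with 6 blue and 0 red in the arginine and tetrahydrobiopterin list.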

How the data were processed

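The deposited scanner files held median spot and background intensity values of both channels and processed intensities, written by Agilent Feature Extraction 10.7.3.1 per the file headers, whereas the submitters' processing notes name version 6.1. The deposited log10 ratio is processed Cy5 over processed Cy3, and the deposited matrix values lay within 0.00499 of it. Matrix columns were used only as an alternative. Each array had 62976 spots, 3671 of them controls. The share of other spots with Cy5 well above background was 56.6% to 57.5% on KO and 49.8% to 52.7% on WT arrays, and 0 were saturated.

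Of 55681 probes, 27509 were named by matching accessions without versions to RefSeq (GRCm38.p6), used for names, neighbours and promoters. No genome of the array's build was used, and probe positions are not given. Median intensities were corrected by normexp (offset 50), turned into log2 ratios and normalised by loess within each array, without control spots. Outlier spots (196 to 403 per array) were left out and spots of a probe averaged. Probes with Cy5 well above background on at least 3 of 6 arrays were kept, and the brightest probe of a gene stood for it. Tests were 2-sided and came from lmFit and eBayes of limma 3.58.1, run in R 4.3.3, and the fit was tested on simulated data. The number of arrays limits the precision.

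The members, the pathway lists and the marker lists were chosen with earlier results of these data known. Every member probe was reported. From each pathway list up to 6 called genes with the smallest unadjusted p were named, and the choice of further genes (those standing apart on KO replicate 1, those not passing the test and the marker genes) followed sight of their values. Alternatives changed the normalisation, channel, offset, filter, probe choice, blocks, weights or arrays 1 at a time.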

Additional observations from a re-analysis of the deposited data

How the results depend on the processing

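Of 538 alternative values of the 30 named genes, 473 kept their sign and their side of the threshold, 51 lost a call, 6 gained one and 8 changed sign, and 13 genes kept sign and side throughout. The sign changes were Nos2 under median centring (0.05), Prkg1 under median centring (0.06), with array weights (0.07) and without KO replicate 1 (0.16), and Npr1 with array weights (-0.01), with the slide row as a block (-0.09), without KO replicate 1 (-0.05) and without WT replicate 3 (-0.04). None of these 3 genes was called in any setting. With the slide row as a block, calls fell from 5214 to 2204 over all genes, from 5 to 3 among the 10 genes and from 20 to 11 in the wider lists. That fit has 1 residual degree of freedom fewer, and row 2 holds WT arrays alone. Leaving out an array gave 3243 (without WT replicate 3) to 5715 calls over all genes, 3 to 5 among the 10 genes and 14 to 24 in the wider lists, with Prkg1 between -0.33 and 0.16 and Npr1 between -0.05 and 0.06.

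Replicate numbers carry no stated pairing. Deviations of same-numbered arrays correlated at 0.135, 0.0835 and 0.201, each the best match of its array, a hint from the data only. With the replicate block, 5130 genes, 5 of the 10 and 21 of the wider lists were called. Genes near background (Nos1, Npr1 and the dimmest Gucy1a2 probe) are limited by signal, and the cause of their shifts between settings was not tested.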
